A study of Homo sapiens with 20 samples.

Results

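No H3K4me3 peak was called in 4 broad regions, at the genes AGMO, FRMD4A, ANKS1A and PDE4B, in melanoma colonies that had lived through 45 days of BRAF inhibition. Mark too weak to be called as a peak is not detectable in these files. The 4 regions were chosen because neither colony library had a peak in them while the other libraries did. They lay on GRCh37 at chromosome 7, 15593418 to 15602347 (AGMO, at its promoter), chromosome 10, 13743469 to 13751409 (FRMD4A), chromosome 6, 34983866 to 34992515 (ANKS1A), and chromosome 1, 66796139 to 66802746 (PDE4B, at an internal promoter). The gene names and the 2 promoter roles come with that choice, since no gene annotation of GRCh37 was at hand to test them. They are 4 of 31428 merged H3K4me3 regions. With every peak inside 20 kb of them, the set grew to 9 regions and to 104 of 306295 peaks.

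The peaks come from 10 libraries of WM164, a human melanoma cell line with mutant BRAF, made by chromatin immunoprecipitation with an antibody to H3K4me3. The groups have 2 libraries each. Colony cells were kept in 50 nM dabrafenib, a BRAF inhibitor, for 45 days, and resistant cells were kept in it for over 90 days at that dose. NRAS Q61K cells overexpress that activated RAS oncoprotein, GFP cells overexpress green fluorescent protein, and parental cells received DMSO for 3 days. No dabrafenib or DMSO treatment is stated in the labels for NRAS Q61K or GFP cells. With the parental cells they are called unexposed here, and GFP and parental cells may also differ by DMSO. The labels do not give the vector or promoter of the transgenes, nor say whether resistant cells were grown from colonies or whether replicates came from separate cultures. P-values therefore measure only the spread between these libraries, which may be technical, and fewer marked cells cannot be told apart from less mark per cell.

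H3K4me3 is laid down by the SET1 and MLL methyltransferase complexes around the start sites of active genes, and is bound by the basal transcription factor TFIID. Genes with several start sites often carry a separate domain of the mark at each start in use. AGMO is alkylglycerol monooxygenase, a tetrahydrobiopterin-dependent enzyme that cleaves ether lipids. PDE4B is a phosphodiesterase that breaks down cyclic AMP, the second messenger through which melanocortin signalling drives the melanocyte programme, and its internal promoters give rise to shorter isoforms. FRMD4A is a FERM domain scaffold protein of epithelial polarity, and ANKS1A is an adaptor with ankyrin repeats and SAM domains that binds EPH receptors.

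Since the mark is usually found at start sites rich in CpG, the sequences before the relevant starts are shown with each CG in capitals. They are RefSeq sequences of GRCh38.p14, 250 bases upstream of the start, 5′ to 3′ on the gene's strand. Their positions cannot be set beside the GRCh37 positions of the peaks. AGMO has 1 listed start (chr7:15562016-15562265, minus strand). PDE4B has 6, of which the most internal pair is shown (chr1:66331858-66332107 and chr1:66354285-66354534, plus strand), since its region was chosen as an internal promoter; which of its starts lies in the region cannot be told here.
AGMO: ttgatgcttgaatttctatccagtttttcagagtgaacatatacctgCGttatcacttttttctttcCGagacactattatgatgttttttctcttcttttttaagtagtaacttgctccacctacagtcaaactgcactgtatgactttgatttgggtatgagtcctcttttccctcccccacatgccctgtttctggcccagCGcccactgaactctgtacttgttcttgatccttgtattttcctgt
PDE4B internal start at 66331858: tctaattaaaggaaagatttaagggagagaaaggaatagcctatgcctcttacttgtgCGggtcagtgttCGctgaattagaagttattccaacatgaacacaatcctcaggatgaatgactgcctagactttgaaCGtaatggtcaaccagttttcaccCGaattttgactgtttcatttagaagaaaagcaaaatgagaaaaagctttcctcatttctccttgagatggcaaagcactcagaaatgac
PDE4B internal start at 66354285: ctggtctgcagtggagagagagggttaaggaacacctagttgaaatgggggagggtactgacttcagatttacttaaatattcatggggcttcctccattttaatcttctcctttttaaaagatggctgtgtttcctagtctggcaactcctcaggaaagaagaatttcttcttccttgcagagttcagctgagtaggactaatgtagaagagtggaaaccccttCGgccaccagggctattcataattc

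The AGMO sequence holds 3 CG and 40.4% G or C, and 22.9% of the 35116 listed promoters hold fewer CG. The internal PDE4B starts hold 4 and 1 CG, against a median of 11 over all listed promoters. The outermost PDE4B starts hold 17 and 16, and the single ANKS1A start holds 23. FRMD4A has 2 listed starts, with 1 and 5 CG. The letters CATGTG, on either strand, occur 1 time before AGMO and in 9.42% of listed promoters. Neither CACGTG nor TGANTCA, searched on both strands, occurs before AGMO or before any of the 6 PDE4B starts. In all, 6.34% and 6.57% of listed promoters hold them. The FRMD4A sequence that begins at 14008551 on GRCh38.p14 holds 1 CACGTG and 1 CATGTG. The other FRMD4A sequence and that of ANKS1A hold neither of these, nor TGANTCA.

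The peak lists differed in length between groups. On the autosomes and X, colony lists held 21408 and 21573 peaks and resistant lists 19401 and 19111, against 37649 to 45376 in the transgene libraries and 29258 and 30065 in the parental libraries. Their shortest peaks were longer, 282 and 284 bp in colony and 255 and 256 bp in resistant lists, against 142 to 202 bp elsewhere. The files hold no read counts, so depth is unknown. The part that this difference plays in the results was not tested. Of the 1351 regions with 5000 bp or more under peaks in the mean of the parental pair, 9 (0.666%) were empty in both colony libraries, against 69.1% of the 2029 regions with under 500 bp. The 4 regions are among those 9, having been chosen for that emptiness, so nothing about them is read from these shares.

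At the AGMO promoter, the peaks of resistant cells kept most of the width seen in unexposed cells. The bases under peaks were 0 and 0 bp in the colony libraries, 5638 and 6307 bp in the resistant, 7229 and 6659 bp in the NRAS Q61K, 8095 and 7869 bp in the GFP and 7852 and 7613 bp in the parental libraries. The resistant pair lay below all 6 unexposed libraries. The share of all regions with that order was not counted. Resistant widths were also lower over the regions marked in all 10 libraries, with median shifts of -0.19 and -0.22 (log2) from the mean of the libraries. Its mean was 77.2% of the parental mean (5973 ± 473 against 7733 ± 169 bp, SD, n = 2 each).

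At FRMD4A the resistant libraries had a narrower domain. Bases under peaks were 0 and 0 bp in colony, 2386 and 2601 bp in resistant, 7732 and 7396 bp in NRAS Q61K, 7171 and 7189 bp in GFP and 6677 and 5968 bp in the parental libraries. The resistant mean was 39.4% of the parental mean. In the 6 unexposed libraries the strongest summit fell within 93 bp, and each of those peaks was in the top 8.22% of its own list by deposited q-value. The resistant summits lay 643 and 260 bp from the nearest parental summit.

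At ANKS1A and PDE4B the resistant libraries had only short, weak peaks. ANKS1A had 0 and 0 bp under peaks in colony, 965 and 1060 bp in resistant, 8180 and 7501 bp in NRAS Q61K, 5934 and 5491 bp in GFP and 6272 and 5964 bp in parental libraries. PDE4B had 0 and 0 bp in colony, 583 and 513 bp in resistant, 6098 and 5994 bp in NRAS Q61K, 5901 and 5496 bp in GFP and 5601 and 5560 bp in parental libraries. The resistant means were 16.55% and 9.82% of the parental means. The name "erased only in colonies" therefore describes AGMO best: PDE4B and ANKS1A were close to empty in resistant cells too.

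**Figure D1:**
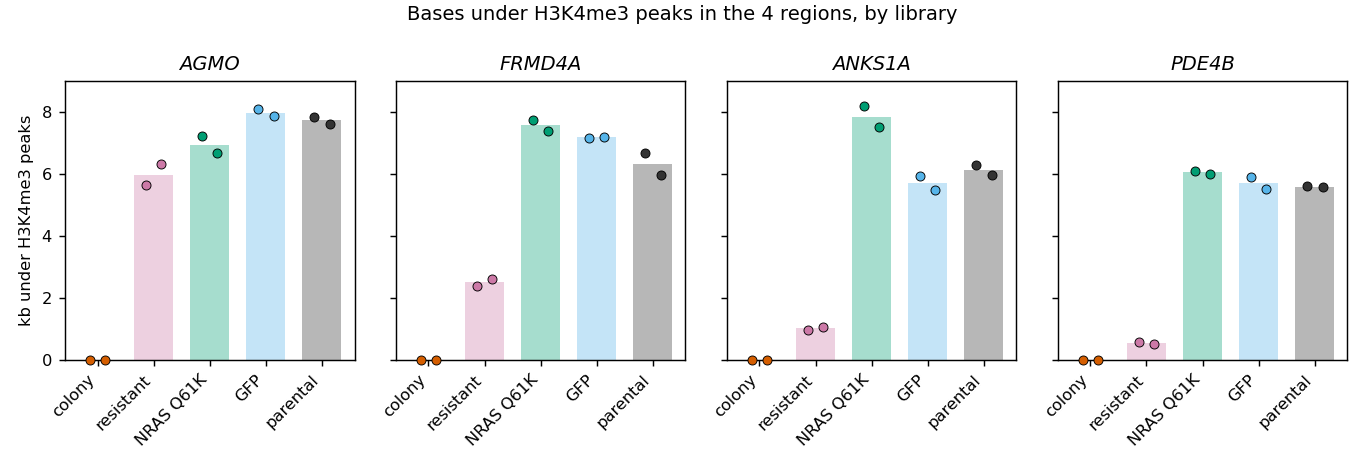
Bases under H3K4me3 peaks in kb (y axis, from 0) in each of the 4 regions, by group (x axis). Points are single libraries and bars the mean of 2: every colony point is at 0, and the resistant mean falls across the panels as a share of the parental mean, 77.2% at AGMO, 39.4% at FRMD4A, 16.55% at ANKS1A and 9.82% at PDE4B.

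The authors' fold over local background and −log10 q-value describe peaks within a list. At AGMO the strongest resistant peaks had folds of 11.3 and 11.4 and −log10 q of 55.9 and 57.6, which placed them in the top 16.9% and 14.9% of their lists. At FRMD4A the resistant folds were 7.21 and 7.73, near the middle of those lists (53.5% and 52.5% from the top). At ANKS1A they were 3.56 and 3.78 (84.4% and 82.3% from the top), and at PDE4B 3.06 and 2.35 (79.5% and 98% from the top). When only peaks with −log10 q of 10 or more were kept, 2 of the 4 regions, AGMO and FRMD4A, still had this pattern, with no colony peak and a peak in each of the 8 others; the resistant peaks at ANKS1A and PDE4B do not reach that strength.

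In the unexposed libraries, the same ranks ran from 14% to 24.5% from the top at AGMO, 6.16% to 24.8% at ANKS1A, 1.22% to 12.8% at PDE4B and 0.377% to 8.22% at FRMD4A. Because lists differ in length, these ranks show no change between libraries. They do place the parental peaks: by the mean −log10 q of the parental pair, FRMD4A stood at percentile 87.6, PDE4B at 86.0, AGMO at 68.7 and ANKS1A at 60.3 of the 16832 regions with peaks in the parental pair. Among the 5267 regions at least as strong as AGMO, 8 (0.152%) were empty in both colony libraries. Over all 16832 regions the share was 15.6%, a share from which nothing is read here because the 4 regions were chosen by it.

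Nearly all bases under resistant peaks lay inside the parental domains, and the same share over all regions was not counted. At PDE4B, FRMD4A and ANKS1A, 100% of the bases under resistant peaks were also under peaks in both parental libraries, and at AGMO 100% and 98.3% were. Of the bases marked in both parental libraries, resistant 1 and 2 covered 79.6% and 87.5% at AGMO, 41.8% and 45.6% at FRMD4A, 17.5% and 19.2% at ANKS1A and 10.6% and 9.33% at PDE4B. The narrowing was uneven between the sides. Relative to the longest parental peak, the longest resistant peak began 1171 bp and ended 3759 bp further in at PDE4B (means of 2), and 1112 and 3681 bp further in at ANKS1A. At FRMD4A the larger step was at the other side, 2338 bp at the start and 886 bp at the end in chromosome direction. At AGMO the steps were 377 and 593 bp.

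**Figure D2:**
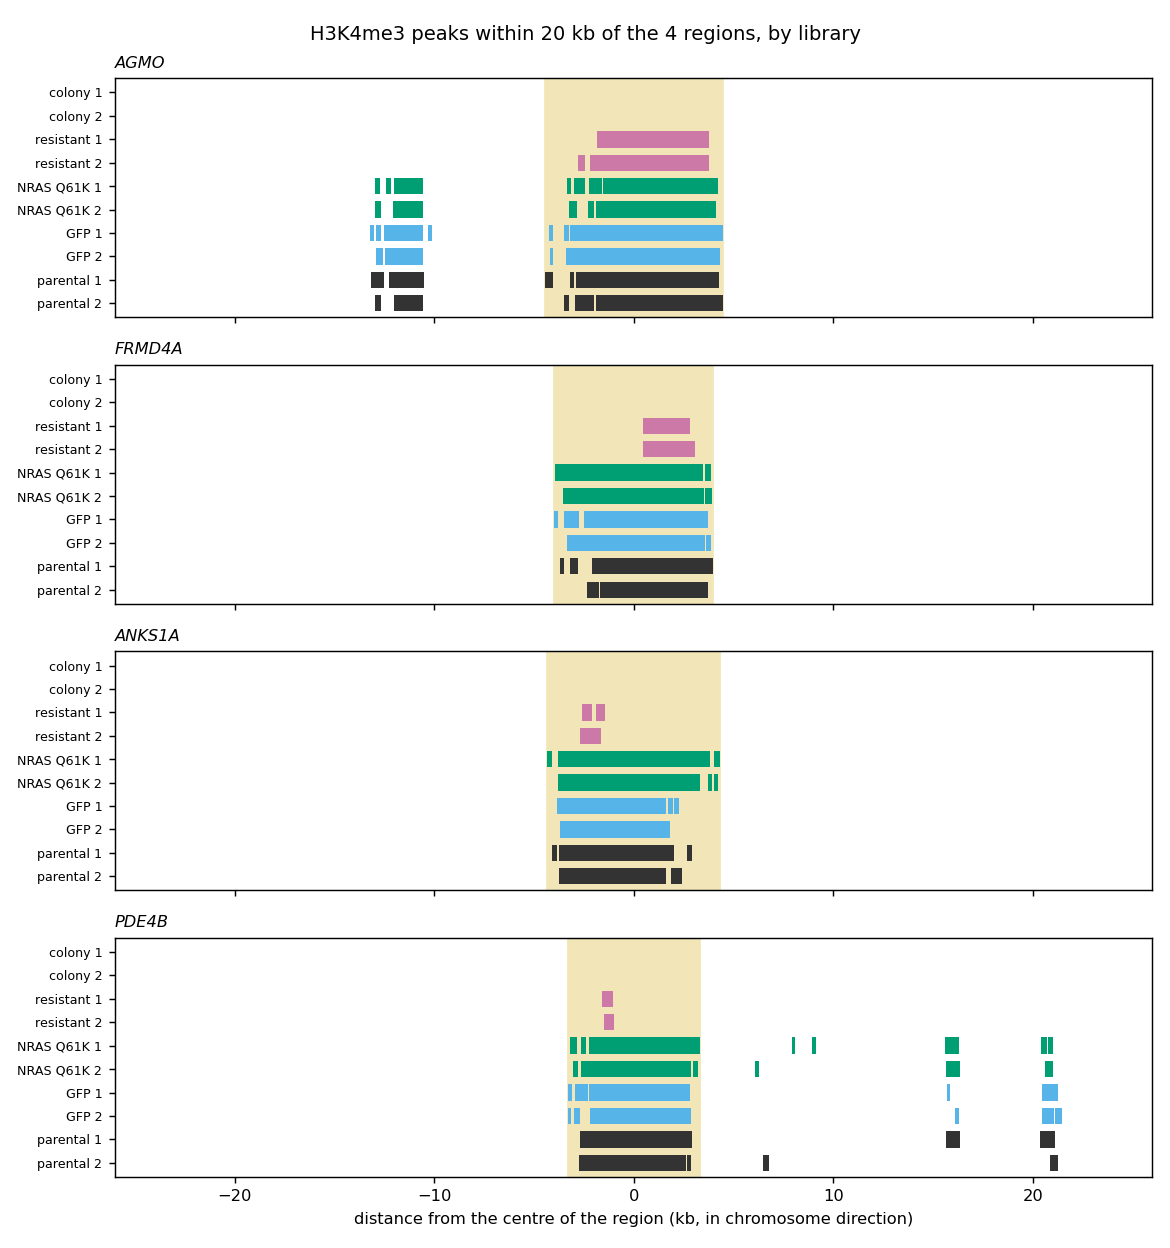
Peaks (bars) within 20 kb of each region, by library (rows), against distance in kb from the region's centre (x axis); shading marks the merged region. The colony rows hold no peak in any panel, resistant bars sit inside the span of the parental bars, and the smaller flanking peaks at AGMO and PDE4B are missing from colony and resistant rows.

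Which widths differed outside the colonies was tested with limma on log2(bases under peaks + 200), fitted over 23153 regions with Benjamini-Hochberg adjustment. That the regions were marked at all in these groups was known from their choice. By mean parental bases they rank 2, 3, 4 and 7 of the 251 regions with no colony peak and a peak in all 8 others. Parental width may therefore also have entered the choice, and the shares over all regions are not shares over regions so wide. Resistant cells had narrower peaks than parental cells at 3 of the 4 regions and wider peaks at none, against 20.6% of all regions tested called narrower and 7.93% called wider. The log2 change was -2.76 at PDE4B (SE 0.09, adjusted p = 1.15e-06), -2.19 at ANKS1A (SE 0.08, adjusted p = 1.93e-06) and -1.08 at FRMD4A (SE 0.07, adjusted p = 2.37e-05). At AGMO it was -0.17 (SE 0.07, adjusted p = 0.126). The fit centres each library, which removed median shifts of -0.19 and -0.22 (log2) from the resistant libraries, and without centring the AGMO change was -0.36 (adjusted p = 0.0062).

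NRAS Q61K cells had a wider ANKS1A domain than GFP cells, 7841 ± 480 against 5713 ± 313 bp (SD, n = 2 each; log2 change 0.49, SE 0.08, adjusted p = 0.0112). That was 1 of 4 regions, against 5.06% of all regions called wider and 2.18% called narrower in that comparison. Both NRAS Q61K values exceeded all other libraries at this region, and how many of all regions show that order was not counted. The extra width lay on one side: the longest peak ended 1861 bp further along the chromosome, while its start differed by 63.5 bp. The call was not kept when peaks under a −log10 q of 10 were dropped (adjusted p = 0.0785), nor without GFP 2 (0.0708), NRAS Q61K 1 (0.122) or NRAS Q61K 2 (0.102), and the change was 0.45 to 0.51 in those 4 fits.

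At the other regions the NRAS Q61K values were 6944 ± 403 against 7982 ± 160 bp in GFP cells at AGMO (log2 change -0.15, SE 0.07), 6046 ± 73.5 against 5699 ± 286 bp at PDE4B (0.13, SE 0.09) and 7564 ± 238 against 7180 ± 12.7 bp at FRMD4A (0.12, SE 0.07), with adjusted p of 0.334, 0.527 and 0.442 by limma. GFP cells, which carry a transgene but no added oncogene, differed from parental cells at 0 of 4 regions by limma, against 1.69% of all regions narrower and 2.67% wider. The lowest adjusted p of the 4 was at ANKS1A (log2 change -0.22, SE 0.08, limma adjusted p = 0.213).

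Smaller peaks flanked 2 of the 4 regions. Next to the AGMO promoter, 5623 bp away on the side of lower coordinates, a region at 15584682 to 15587795 had 0 and 0 bp under peaks in colony, 0 and 0 bp in resistant, 1972 and 1793 bp in NRAS Q61K, 2553 and 2293 bp in GFP and 2446 and 1733 bp in parental libraries. It was called narrower than parental in colonies (limma adjusted p = 1.06e-05) and in resistant cells (adjusted p = 1.09e-05). The AGMO promoter has resistant peaks by its choice, so nothing is read from its contrast with this flank.

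Beyond PDE4B, 17086 bp away, the region 66819832 to 66820897 had 0 bp in both colony and both resistant libraries, 574 and 431 bp in NRAS Q61K, 783 and 931 bp in GFP and 735 and 403 bp in parental libraries. It was called narrower than parental in colonies (limma adjusted p = 0.00112) and in resistant cells (adjusted p = 0.00143), the colony call not with lists of equal length (adjusted p = 0.405). Another 3 PDE4B flanks, starting at 66805522, 66807397 and 66815038, had no peak in either drug group. They were marked in 1, 0 and 1 of the parental libraries, and the 2 that could be tested did not pass, though that at 66815038 did in colonies without parental 2 (limma adjusted p = 0.00124). No peak of any other region lay within 20 kb of FRMD4A or ANKS1A.

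The nearest colony peaks at FRMD4A lay 113311 and 113418 bp away in colony 1 and 2, and at ANKS1A 125032 and 125009 bp away. They belong to the regions 112694 and 124207 bp away that are also the nearest others with a parental peak, so parental cells had no other peak over those distances either. At PDE4B the distances were 51437 bp in colony 1, to a peak of 359 bp, and 333175 bp in colony 2. At AGMO colony 2 had a peak of 396 bp at 45515 bp, and colony 1 had none for 856977 bp.

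The other regions within 700 kb on each side, a span longer than each gene, stand here for the other peaks of the 4 genes and also hold peaks of neighbouring genes. In the order of RefSeq genes the next protein-coding genes are DGKB and MEOX2 for AGMO, LEPROT and SGIP1 for PDE4B, PRPF18 and FAM107B for FRMD4A, and TAF11 and TCP11 for ANKS1A. Of 68 such regions 51 could be tested. In colonies against parental cells 15 were narrower and 2 wider by limma, or 29.4% and 3.92%, where 16.7% and 4.29% of all regions were. By gene, 8 of 10 were narrower at AGMO, 4 of 16 at PDE4B, 2 of 8 at FRMD4A and 1 of 17 at ANKS1A. The difference between them was not tested, and the AGMO count was 2 of 6 with lists of equal length and 3 of 5 with −log10 q of 10 or more.

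With weak peaks removed, fewer of the surroundings were called. With lists of equal length 4 of 38 were narrower, where 9.27% of all regions were, and with −log10 q of 10 or more 5 of 32, where 9.89% were; none was called wider in either, where 5.1% and 3.29% of all regions were. Of 37 surrounding regions marked in both parental libraries, 12 were empty in both colony libraries, where 15.6% of all such regions were. By parental mean, 6 of those 12 had under 500 bp, 3 had 500 to 1000 bp, 2 had 1000 to 2500 bp and 1 had more. Over all regions, 1402 of the 2620 had under 500 bp and 867 had 500 to 1000 bp. In resistant cells, set against the same parental pair, 14 of the 37 were empty, where 22% were among all regions with peaks in the parental pair. All 12 regions empty in colonies were among them. Such overlap was common over all regions empty in colonies. With under 500 bp, 1279 of 1402 were also empty in resistant cells, and with 500 to 1000 bp 699 of 867. With 1000 to 2500 bp it was 181 of 289, and with 2500 to 5000 bp 17 of 53. Of the 68 surrounding regions 0 were empty in colonies and marked in all 8 other libraries. That pattern is rare, held by 251 of all 31428 regions, so nothing is read from the 0.

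AGMO stood in a stretch where no region was marked in all 10 libraries, as 12087 of all 23153 tested regions were. Besides its near flank, regions called narrower were at 15687341 to 15688797, with 0 bp in both colony and both resistant libraries against 1301 and 1279 bp in parental cells (colony against parental, limma adjusted p = 8.68e-05), and at 15546402 to 15547928, with 0 and 396 bp in colony, 0 and 0 bp in resistant and 1510 and 1358 bp in parental libraries (adjusted p = 0.00843). The call at 15546402 was not kept with lists of equal length (adjusted p = 0.12) or without parental 1 (0.0507), and its log2 change of -2.27 was -1.50 without colony 1 and -3.04 without colony 2. The other 5 that were called had parental means of 207.5 to 697.5 bp and no colony or resistant peak; those at 16012252 and 16106643 were not called with lists of equal length or with −log10 q of 10 or more, nor that at 15528831 with only overlapping peaks merged. The 8 regions around AGMO that were marked in both parental libraries were all empty in both resistant libraries, where 22% of all such regions were. Their parental means were 207.5 to 2089.5 bp. Of all regions with under 500 bp 85.5% were empty in resistant cells. That share was 62.7% with 500 to 1000 bp and 11.5% with 1000 to 2500 bp. The promoter has resistant peaks by its choice, so nothing is read from its contrast with these 8. A further region, 36895 bp from the promoter at 15554808 to 15556523 and picked out after its values were seen, had 0 and 0 bp in colony, 721 and 432 bp in resistant and 261 and 0 bp in parental libraries, with 0 bp in the 4 transgene libraries. It was called wider in resistant than in parental cells (log2 change 1.53, SE 0.35, limma adjusted p = 0.0130).

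Around PDE4B the widest region without a colony peak was at 67026420 to 67030411, 223674 bp away. It had 0 and 0 bp in colony, 0 and 0 bp in resistant, 3623 and 3297 bp in NRAS Q61K, 3142 and 2710 bp in GFP and 3360 and 3383 bp in parental libraries (colony against parental, limma adjusted p = 1.03e-06). At 66648801 to 66649755, 146384 bp to the other side, colony and resistant libraries were at 0 against 943 and 886 bp in parental cells (adjusted p = 1.30e-04), and at 67170841 to 67171649 they were at 0 against 445 and 357 bp (adjusted p = 6.48e-04). The region at 66457258 to 66462991 was marked in every library, with 5527 and 5707 bp in colony, 4106 and 4054 bp in resistant and 5011 and 5397 bp in parental libraries. The widest of the surroundings, at 67388515 to 67400454, had 9112 and 9230 bp in colony and 9110 and 9727 bp in parental libraries (adjusted p = 0.561, and 0.0300 without parental 1).

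Most regions around FRMD4A and ANKS1A had peaks in colonies. Around FRMD4A 7 of the 8 tested regions were marked in all 10 libraries, and around ANKS1A 14 of 17. Over all tested regions, 12087 of 23153 were. The nearest to FRMD4A, at 13628412 to 13630775, had 1641 and 1349 bp in colony, 1302 and 1405 bp in resistant and 1656 and 1379 bp in parental libraries. A neighbouring pair moved in opposite directions in colonies: the region at 14048790 to 14053160 had 2052 and 1921 bp in colony against 2888 and 3087 bp in parental cells (log2 change -0.57, SE 0.10, limma adjusted p = 0.00535), while that at 14059865 to 14067804 had 6637 and 5960 against 4958 and 4716 bp (0.34, SE 0.09, adjusted p = 0.0248). The second call was not kept with −log10 q of 10 or more (log2 change 0.08, adjusted p = 0.563), with lists of equal length (0.23, adjusted p = 0.106), or without parental 1, parental 2 or colony 1 (adjusted p of 0.123, 0.0721 and 0.133). The first was not kept with lists of equal length (adjusted p = 0.077).

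The other called regions near FRMD4A changed by less or were short. That at 13387673 to 13392604 had 3215 and 3498 bp in colony against 4194 and 3915 bp in parental cells (limma adjusted p = 0.0306, and 0.0504 to 0.14 without any 1 of the 8 libraries other than the resistant pair). It was not called either with −log10 q of 10 or more (0.0746), lists of equal length (0.0512), only overlapping peaks merged (0.0631) or no centring (0.0979). That at 13569751 to 13571903 had 529 and 626 bp in colony against 202 and 0 bp in parental cells (adjusted p = 0.0143, 0.062 without colony 2 and 0.0664 with lists of equal length). Around ANKS1A the one called region, 34677609 to 34678360, had 0 bp in both colony and both resistant libraries against 377 and 518 bp in parental cells (adjusted p = 0.00135, but 0.989 with −log10 q of 10 or more and 0.96 with lists of equal length). The widest parental region there, 34852818 to 34859659 at 124207 bp, had 4857 and 4481 bp in colony, 4235 and 4077 bp in resistant and 4911 and 4801 bp in parental libraries (colony against parental, adjusted p = 0.398).

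**Figure D3:**
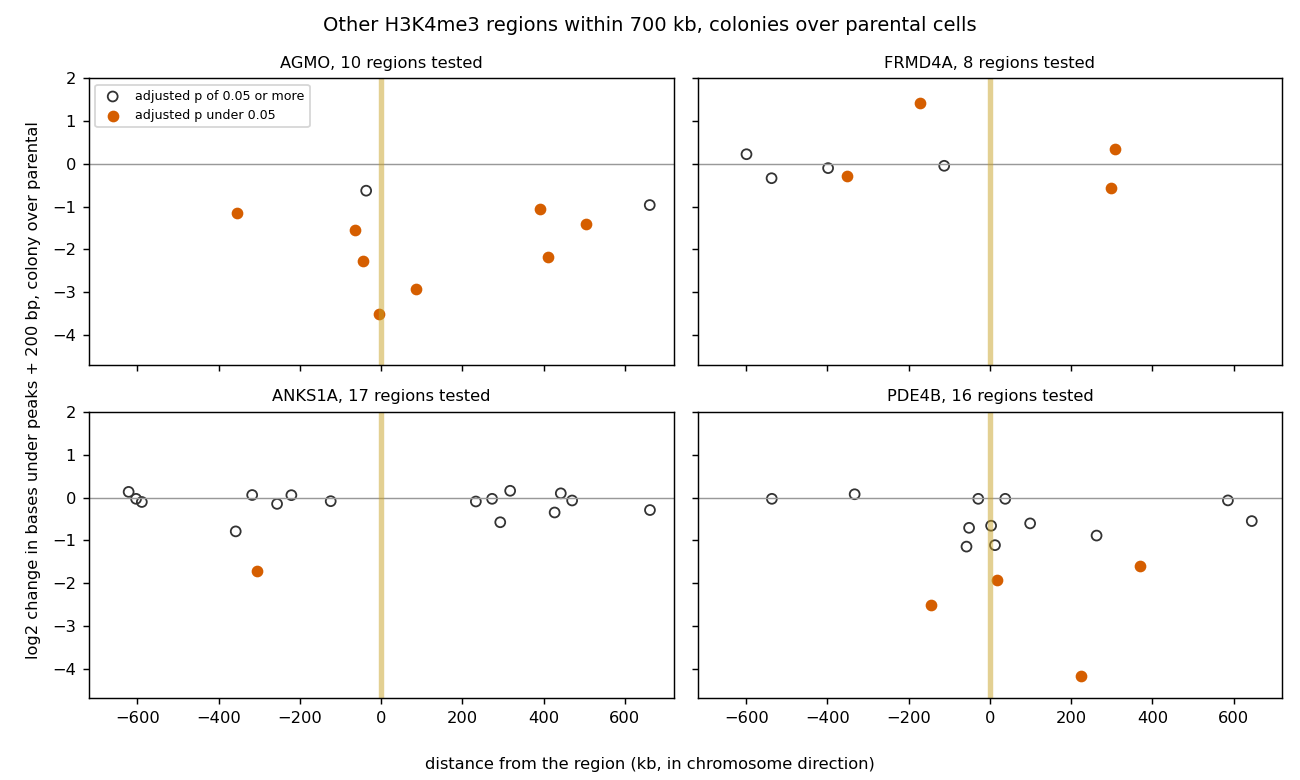
Log2 change in bases under peaks + 200 bp, colony over parental (y axis), for the other regions within 700 kb of each of the 4 regions, against distance in kb (x axis); filled points had a limma adjusted p under 0.05, and the vertical line marks the region itself, which is not plotted. Changes around AGMO were all below 0 with 8 of 10 filled, while 16 of the 17 points around ANKS1A are open.

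The 4 regions were not alone in their pattern. In all, 251 regions had no peak in either colony library and at least 1 in each of the 8 others. By mean parental bases AGMO ranked 2, FRMD4A 3, ANKS1A 4 and PDE4B 7 among them; the widest was at 9p21.3. The median parental length in that class was 993.5 bp, against 2345 bp over all regions with peaks in the parental pair. The resistant mean was at a median of 89.5% of the parental mean in the class. By that percentage AGMO ranked 157, FRMD4A 231, ANKS1A 246 and PDE4B 250 of 251, so PDE4B was next to the lowest. Some regions missed the pattern only by a peak in 1 colony library. The widest of these, 16p11.2 (chromosome 16, 34350866 to 34358880), had 0 and 416 bp in colony against 6310 and 5440 bp in parental cells. Next, 6q23.2 (chromosome 6, 133419595 to 133426844) had 0 and 420 bp against 5962 and 5744 bp. Wider regions by parental mean had 0 bp in both colony and both resistant libraries. These were 8q24.21 (chromosome 8, 127840458 to 127847405), with 6775 and 6253 bp in parental libraries, and 11q23.2 (chromosome 11, 114165453 to 114172267), with 6211 and 5587 bp.

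**Figure D4:**
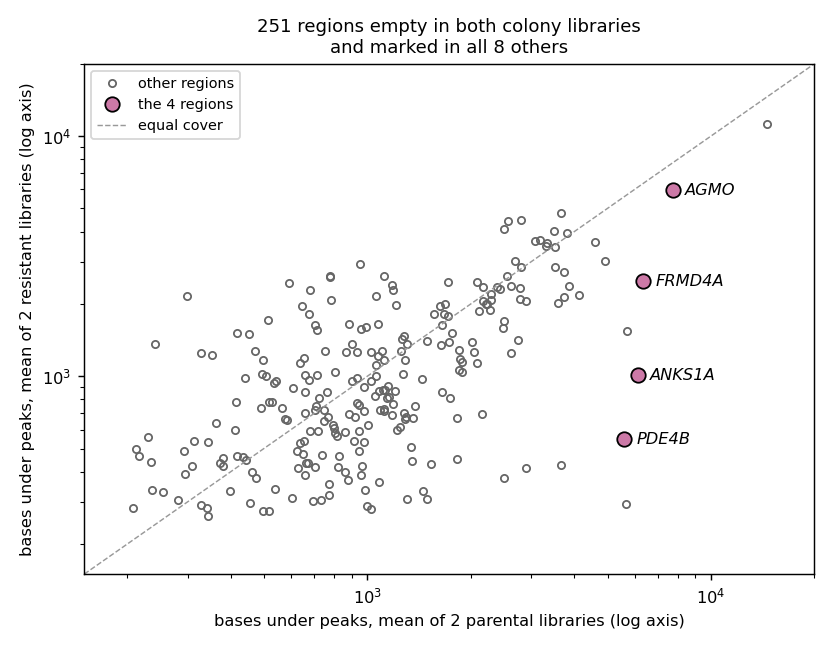
Mean bases under peaks in the resistant pair (y axis, log) against the parental pair (x axis, log) for the 251 regions with a peak in all 8 other libraries and in neither colony library; the dashed line is equal cover and filled points are the 4 regions. AGMO sits just under the line and PDE4B far below it, at 548 bp against 5581 bp.

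The regions most like each of the 4 over the 10 libraries were sought outside its surroundings, by the root mean square difference of log2(bases under peaks + 200). PDE4B and ANKS1A were close to each other, at 0.36: ANKS1A was the second nearest of all regions to PDE4B, and PDE4B the nearest to ANKS1A. The region nearest to PDE4B, at 0.30, was 9q21.11 (chromosome 9, 69876890 to 69883507), with 271 and 316 bp in resistant against 5785 and 5534 bp in parental libraries. The nearest to FRMD4A, at 0.33, was 2q37.1 (chromosome 2, 231768378 to 231774715), with 2833 and 3175 against 4961 and 4867 bp. The nearest to AGMO was FRMD4A itself, at 0.56, and the next were the same 2q37.1 region (0.58) and 8q22.2 (chromosome 8, 101514095 to 101520138; 0.59). AGMO and PDE4B, at 1.40, were the least alike pair among the 4. This likeness rests on the shared colony zeros, and is a description of these libraries.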

How the data were processed

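WM164 H3K4me3 was profiled in 10 libraries, 2 in each of 5 groups taken from the sample titles; the 10 input samples were not used here. Builds GRCh37 and hg19 appear in the submitters' processing notes, with no roles, beside the tools deepTools 2.5.4, MACS2 2.1.2, SAMtools and BWA. The authors deposited 1 peak list per library, not pooled, with start, end and summit in bases. The deposited fold is a ratio over local background, each peak also has a deposited −log10 q-value and a deposited −log10 p-value, and its deposited score equals the q column times 10 without decimals in all but 13 peaks. For inputs and duplicate reads, no treatment is given in the sources read.

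Peaks on the autosomes and X were used (306295, with 589 on other sequences left out) and merged within 1000 bp into 31428 regions. Bases under peaks were tested on log2(bases + 200) with limma (version 3.58.1, R version 4.3.3) over the regions that at least 2 libraries marked, each library centred on its median over the 12087 regions marked in all 10. The fit had 5 group means and eBayes with a trend, with Benjamini-Hochberg adjustment over all 23153 regions and a threshold of 0.05. The script was tested on simulated data. A region empty in a group has no spread of its own there, so its SE rests on the other groups. Colony values in the 4 regions were not tested, since they chose the regions. Regions named in the surroundings are all within 20 kb, all that were called in colonies, and the widest parental one. Those at 66457258, 13628412 and 15554808 fall outside this rule and were picked after their values were seen. For likeness, the 3 nearest regions were taken. Gene names for the 4 regions came with their choice, and the planned placement of peaks inside genes and check of melanocyte markers were not run, since no annotation of GRCh37 was used here. Bands came from circlize 0.4.16. Figures were drawn with matplotlib 3.10.9, and tables made with pandas 2.3.3 and numpy 2.4.6 under Python 3.11.15. The regions, lists and tests were chosen with earlier results of these data known.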

Additional observations from a re-analysis of the deposited data

How the results depend on the processing

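The narrower resistant peaks at PDE4B, ANKS1A and FRMD4A kept direction and call under all 19 alternatives run for each, with log2 changes of -4.64 to -1.93, -4.66 to -1.67 and -1.27 to -0.91; for PDE4B and ANKS1A the size depends on the pseudocount, since little or nothing is covered in resistant cells. The AGMO change was called only without centring (-0.36), and ran from -0.26 to -0.07 with single libraries left out. For GFP against parental, whose changes were not called, the sign at AGMO turned with −log10 q of 10 or more (0.0088), equal list lengths (0.022) and no centring (0.045), and at PDE4B without centring (0.028). For NRAS Q61K against GFP, AGMO was called at −log10 q of 10 or more (-0.34, adjusted p = 0.0496) and ANKS1A was not (0.45); with single libraries left out ANKS1A ran from 0.45 to 0.53. The surroundings held 5 narrower and 0 wider regions at the stricter threshold, 4 and 0 with equal lists, 8 and 1 within 300 kb, and 14 to 17 narrower and 1 to 2 wider with single libraries left out. Without single libraries the change at 67388515 near PDE4B ran from -0.17 to 0.042, above 0 only without parental 2. The class of 251 regions fell to 144 with equal lists and held 252 to 369 with single libraries left out; the 4 regions stayed in it except under the stricter threshold. The cause of these shifts was not tested. No pairing of the libraries by replicate number was visible in these widths: deviations of equal numbers correlated between -0.07 and 0.08 over the 10 pairs of groups. That does not settle how the replicates were prepared. The fit with the replicate block gave 15 narrower and 2 wider regions. With no read counts, weak mark under the peak threshold in colonies is not detectable.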
